A study of Mus musculus with 4 samples.

Results

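Amphiregulin (*Areg*), the growth factor that lung ILC2s are best known to release during repair, was followed with 4 related ligands and 3 of their receptors in RNA sequenced from sorted mouse lung ILC2s. The 8 genes are the ligands *Areg*, *Hbegf*, *Ereg*, *Tgfa* and *Btc* and the receptors *Egfr*, *Erbb2* and *Erbb3*, out of 49315 genes in the table. They were to be found by the gene name given in the table, which located 7 of them. The row of *Areg* carries the name Mcub there, a symbol that RefSeq lists as a synonym of *Areg*, while a separate row is the mitochondrial gene *Mcub* itself. *Areg* was therefore read by its Ensembl identifier, ENSMUSG00000029378. Of the 8 genes, 7 reached 1 CPM (reads as a rate of a scaled library size) in at least 1 library and were compared, as were 14840 genes in all, and *Btc* did not.

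ILC2s were sorted as Lineage-negative cells positive for Thy1.2, ICOS and T1/ST2 and were kept in culture with IL-2 before RNA was extracted. The 4 groups were sequenced with 1 library per group, from WT C57BL/6 mice given PBS (PBS-WT) or bleomycin (BLEO-WT) and *Hps1*-/- mice given PBS (PBS-HPS1) or bleomycin (BLEO-HPS1). *Hps1* encodes a subunit of BLOC-3, a complex needed to make lysosome-related organelles, and bleomycin injures the lung and is used to bring on fibrosis. The study's methods describe male and female mice and give bleomycin to both genotypes in separate intratracheal and intraperitoneal schedules, with an age stated for the latter. Which schedule, and how many mice, stand behind each library is not given in the sources used here. By the study's methods, PBS-WT was made from 22405 cells, PBS-HPS1 from 38873, BLEO-WT from 84166 and BLEO-HPS1 from 128647, so cell number differed with the groups. Each group is a single library with no replicate, so no test between groups was possible. Intervals are exact 95% intervals that cover only the counting error of reads, which is what counting error means below. PCR copies among the reads are not separate molecules, so the intervals can be too narrow for counts of molecules.

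Total counts were between 72513619 and 87638154 per library, and 3 reads, taken as the floor, correspond to between 0.0303 and 0.0475 CPM. Reads on the targeted gene *Hps1* were at 38.3 CPM in PBS-WT and 16.6 in PBS-HPS1, then 48.4 in BLEO-WT and 21.3 in BLEO-HPS1, lower in both libraries from *Hps1*-/- mice and not absent. The markers of ILC2s were present at modest levels beside those of other lung cells. *Gata3*, the transcription factor that ILC2s depend on, was between 25.1 and 39.1 CPM, and *Ptgdr2*, which encodes the ILC2 receptor CRTH2, was between 0.301 and 0.818 CPM. *Lyz2*, a lysozyme gene of macrophages and neutrophils, was between 6083 and 13145 CPM. Macrophage and monocyte markers summed to 12053 to 20858 CPM over 12 genes, against 945 to 1274 CPM over 16 ILC2 markers, of which *Thy1*, *Arg1* and *Il7r* had the highest mean levels. *Arg1*, which macrophages also express, was at 8.34, 4.59, 387 and 257 CPM in the order PBS-WT, PBS-HPS1, BLEO-WT, BLEO-HPS1. The sort was set to exclude cells bearing CD3, CD11b, B220, Ly76, Ly6G or Ly6C, with a high purity stated in the study's methods. T cells, B cells, neutrophils and other cells bearing these markers should thus have been removed. Which cells the reads of the 8 genes came from was not tested. In RNA from many cells, fewer cells of a type and less RNA per cell cannot be told apart.

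The EGF-family ligands are made as membrane-anchored precursors, and proteases of the ADAM family release the active growth factor. AREG, TGFA and EGF bind EGFR, HBEGF, EREG and BTC bind both EGFR and ERBB4, and the neuregulins bind ERBB3 and ERBB4. ERBB2 has no known ligand of its own and signals as the partner of the other receptors, while ERBB3 has little kinase activity and also signals through its partners. In the lung, AREG from ILC2s and other leukocytes acts mainly on epithelial cells and fibroblasts, where EGFR signalling takes part in both repair and fibrosis.

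*Areg*, *Ereg* and *Btc* lie close together on chromosome 5 of GRCm38 (GENCODE M21). *Ereg* runs from 91074622 to 91093646 and *Areg* from 91139599 to 91148432, both on the plus strand, and *Btc* from 91357261 to 91402994 on the minus strand. *Egfr* (16752203 to 16918158, plus strand) and *Erbb2* (98412470 to 98437716, plus strand) lie on chromosome 11. *Tgfa* lies on chromosome 6 from 86195223 to 86275719 on the plus strand and *Erbb3* on chromosome 10 from 128567523 to 128589652 on the minus strand. All 8 are protein coding.

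The promoters of *Areg*, the ligand with the highest level, and of *Egfr*, the member with the largest increase after bleomycin, are shown to set their letters side by side. RefSeq's table of promoters for GRCm38.p6 held 5 of the 8 members, *Areg*, *Tgfa*, *Btc*, *Egfr* and *Erbb2*. Each sequence is the 250 bases before the start of the gene, read 5′ to 3′ on the gene's strand, for *Areg* chr5:91139349-91139598 and for *Egfr* chr11:16751953-16752202, both on the plus strand. Capitals mark the cAMP response element TGACGTCA and the GC box GGGCGG, searched on both strands, and the TATA box TATAAA, searched on the gene's strand.
Areg: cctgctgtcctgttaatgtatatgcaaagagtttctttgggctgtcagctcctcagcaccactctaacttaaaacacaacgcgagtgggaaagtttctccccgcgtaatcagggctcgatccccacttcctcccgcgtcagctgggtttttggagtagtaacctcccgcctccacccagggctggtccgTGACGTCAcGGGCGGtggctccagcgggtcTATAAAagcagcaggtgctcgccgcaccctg
Egfr: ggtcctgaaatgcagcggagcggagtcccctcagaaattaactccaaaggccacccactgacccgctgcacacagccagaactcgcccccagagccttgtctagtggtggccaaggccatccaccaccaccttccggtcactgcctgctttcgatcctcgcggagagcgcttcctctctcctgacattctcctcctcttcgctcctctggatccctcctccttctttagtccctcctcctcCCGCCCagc
The *Areg* window held 1 cAMP response element that began 61 bases before the start, 1 GC box at 52 bases and 1 TATA box at 31 bases, with no overlap between them. The cAMP response element was found in 1.55% of the 32851 windows of this length and in none of the other 4 members searched. TATAAA was found in 7.59% of all windows, and among the 5 members in *Areg* alone. The *Egfr* window held 1 GC box, on the minus strand and 9 bases before the start, a motif that 32.7% of windows held. These matches describe the letters only.

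Levels of different genes were compared per kilobase of the longest transcript. *Areg* had the highest level of the 8 in every library, at 14.3 CPM per kb in PBS-WT and 15.4 in PBS-HPS1, then 27.1 in BLEO-WT and 20.5 in BLEO-HPS1. *Hbegf*, which encodes heparin-binding EGF-like growth factor, was next in 3 libraries, at 2.30 CPM per kb in PBS-WT, where its interval overlapped that of *Ereg* at 2.10, 4.40 in BLEO-WT and 3.56 in BLEO-HPS1. In PBS-HPS1 *Ereg*, the epiregulin gene, was second at 3.74 CPM per kb, above *Hbegf* at 2.22. *Erbb2* and *Erbb3* followed, and their intervals overlapped in PBS-WT, PBS-HPS1 and BLEO-WT but not in BLEO-HPS1, where *Erbb2* was at 1.53 CPM per kb and *Erbb3* at 1.01. *Egfr* was below *Tgfa* in both PBS libraries, at 0.141 against 0.343 CPM per kb in PBS-WT and 0.267 against 0.404 in PBS-HPS1. It was above *Tgfa* in both bleomycin libraries, at 0.558 against 0.293 in BLEO-WT and 0.695 against 0.178 in BLEO-HPS1. The order in the PBS libraries depends on the division by length. By CPM alone *Egfr* was above *Tgfa* in PBS-HPS1, at 2.73 against 1.83. In PBS-WT they were at 1.44 and 1.55 CPM, with intervals that overlapped. *Btc*, the betacellulin gene, was the lowest member in all 4 libraries, at 0.0314 to 0.0502 CPM per kb, with 14, 20, 10 and 8 reads in the order PBS-WT, PBS-HPS1, BLEO-WT, BLEO-HPS1. The longest transcripts ranged from 1215 bases for *Areg* to 10208 for *Egfr*, and their GC content from 37.7% for *Btc* to 57.3% for *Erbb2*, with *Areg* at 48.4%, *Egfr* at 44.4% and *Ereg* at 39.2%.

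**Figure D1:**
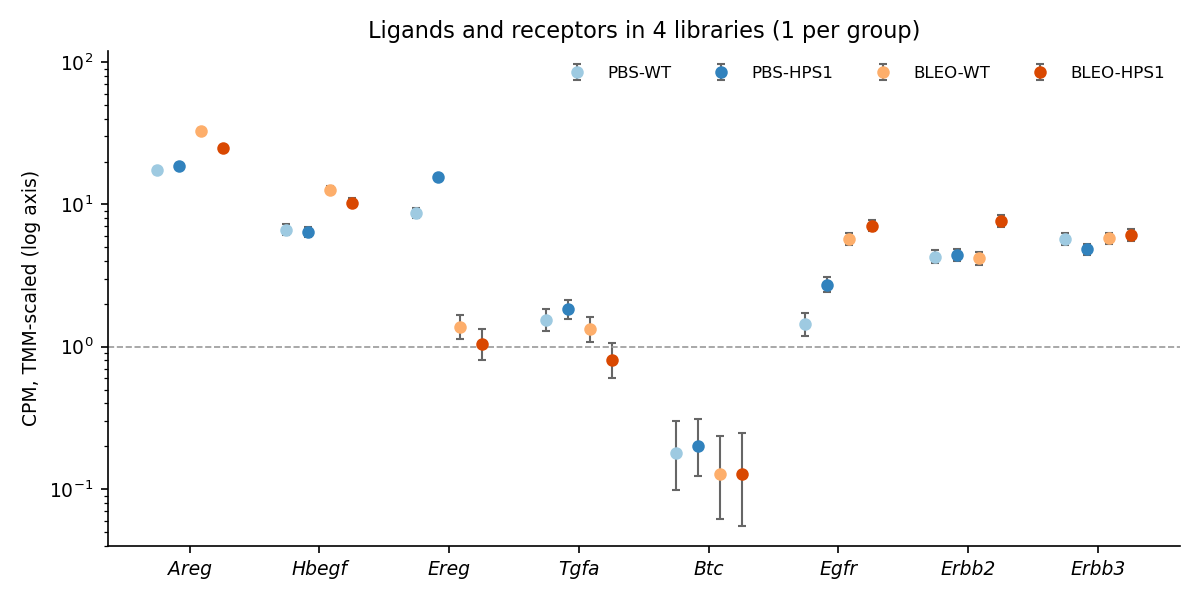
CPM of each of the 8 genes in the 4 libraries on a log axis, 1 point per library, with exact 95% Poisson intervals for counting error and a dashed line at 1 CPM. *Areg* and *Hbegf* sit higher in both bleomycin libraries, *Ereg* is at 8.68 and 15.5 CPM in the PBS libraries and at 1.38 and 1.04 in the bleomycin libraries, and *Egfr* runs from 1.44 in PBS-WT to 7.09 in BLEO-HPS1.

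Whether *Hps1* loss alone went with a difference in these genes was read from PBS-HPS1 against PBS-WT. No member was 2-fold apart in either direction, where 2.16% of all compared genes were higher and 3.11% lower by that much. *Areg* had 1354 reads in PBS-WT and 1856 in PBS-HPS1, or 17.4 and 18.7 CPM. Its log2 ratio was 0.11 (0.01 to 0.21), a difference that barely exceeded counting error. *Hbegf*, at 6.66 and 6.41 CPM, had a log2 ratio of -0.05 (-0.22 to 0.12).

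Among the other members, *Egfr* and *Ereg* were farthest apart in the absence of injury. *Egfr* had 112 reads in PBS-WT and 270 in PBS-HPS1, a log2 ratio of 0.91 (0.60 to 1.26), and 2.70% of genes had a higher one. *Ereg* had 677 and 1530 reads, a log2 ratio of 0.83 (0.70 to 0.96), exceeded by 3.31% of genes. With total counts in place of TMM library sizes both passed 2-fold, with log2 ratios of 1.16 and 1.07. Total counts also moved the median of all genes by 0.25 in this comparison. After correction for GC content and transcript length the ratios were 0.65 for *Egfr* and 0.80 for *Ereg*. *Tgfa* (0.23), *Erbb2* (0.03) and *Erbb3* (-0.24) stayed nearer to 0, and the intervals of *Tgfa* and *Erbb2* spanned 0. The 2 PBS libraries also differed in neutrophil markers, which summed to 1657 CPM in PBS-WT and 485 in PBS-HPS1 over 10 genes, and in fibroblast markers, which summed to 367 and 542 CPM over 15 genes. Their part in these ratios was not tested.

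Bleomycin in WT mice was read from BLEO-WT against PBS-WT. *Egfr* was higher and *Ereg* lower by at least 2-fold, 1 member in each direction, where 5.28% of all compared genes were higher and 8.22% lower. *Areg* had 2585 reads in BLEO-WT against 1354 in PBS-WT, or 33.0 against 17.4 CPM. The log2 ratio of *Areg* was 0.92 (0.83 to 1.02), or 1.90-fold, and 6.08% of genes had a higher ratio. *Hbegf* behaved alike, with 12.7 against 6.66 CPM and a log2 ratio of 0.93 (0.78 to 1.09).

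*Egfr*, the receptor of *Areg*, was at 1.44 CPM in PBS-WT and 5.70 in BLEO-WT. Its log2 ratio of 1.97 (1.69 to 2.30), or 3.92-fold, was exceeded by 1.17% of genes. *Ereg* had 677 reads in PBS-WT and 108 in BLEO-WT, or 8.68 and 1.38 CPM. Its log2 ratio was -2.63 (-2.96 to -2.36), a level 6.21 times lower, and 0.775% of genes had a lower ratio. After correction by local regression on GC content and transcript length (the GC and length correction) it was -1.97, short of 4-fold. *Tgfa* (1.33 against 1.55 CPM), *Erbb2* (4.17 against 4.30 CPM) and *Erbb3* (5.76 against 5.72 CPM) had log2 ratios of -0.22, -0.04 and 0.01, all with intervals that spanned 0. *Ereg* shares its locus with the antisense gene *Gm19610*, which had at most 11 reads in any library, and *Egfr* with *Egfros*, which had at most 5 (whether reads were counted by strand is not given in the sources used here).

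In *Hps1*-/- mice the same treatment was read from BLEO-HPS1 against PBS-HPS1. Here *Egfr* was higher and *Ereg* and *Tgfa* were lower by at least 2-fold, where 26.2% of all compared genes were higher and 19.6% lower, so that 1 and 2 of the 7 compared members are not read as a result about them. *Areg* was at 25.0 CPM in BLEO-HPS1 and 18.7 in PBS-HPS1, with a log2 ratio of 0.41 (0.32 to 0.51). The direction of this ratio depends on the scaling and on the composition of transcripts. It was -0.23 with total counts and -0.14 after the GC and length correction. Total counts moved the median of all genes by -0.68 in this comparison, and relative to the median of all genes *Areg* was at 0.16 with TMM library sizes, 0.20 with total counts and -0.40 after the correction. *Hbegf*, at 10.3 and 6.41 CPM, had a log2 ratio of 0.68 (0.52 to 0.84), which was 0.04 with total counts and 0.39 after the correction.

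*Egfr* was at 7.09 CPM in BLEO-HPS1 and 2.73 in PBS-HPS1. The log2 ratio was 1.37 (1.16 to 1.60), or 2.59-fold, and ranged from 0.73 with total counts to 3.03 after the correction. *Ereg* had 66 reads in BLEO-HPS1 and 1530 in PBS-HPS1, or 1.04 and 15.5 CPM. The log2 ratio of -3.85 (-4.26 to -3.53), a level 14.5 times lower, was undercut by 0.209% of genes. It stayed below -2 under every setting tried, from -4.49 with total counts to -2.46 after the correction. *Tgfa*, whose product is transforming growth factor alpha, had 51 and 181 reads and a log2 ratio of -1.15 (-1.66 to -0.72). *Erbb2* was at 7.65 and 4.39 CPM, with a log2 ratio of 0.80 (0.61 to 0.99) that was 0.16 with total counts and 0.44 after the correction. *Erbb3* was at 6.09 and 4.83 CPM, with a ratio of 0.33 (0.14 to 0.53) that was -0.31 with total counts. *Ereg* was thus low in both bleomycin libraries and high in both PBS libraries, with no overlap of the levels.

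**Figure D2:**
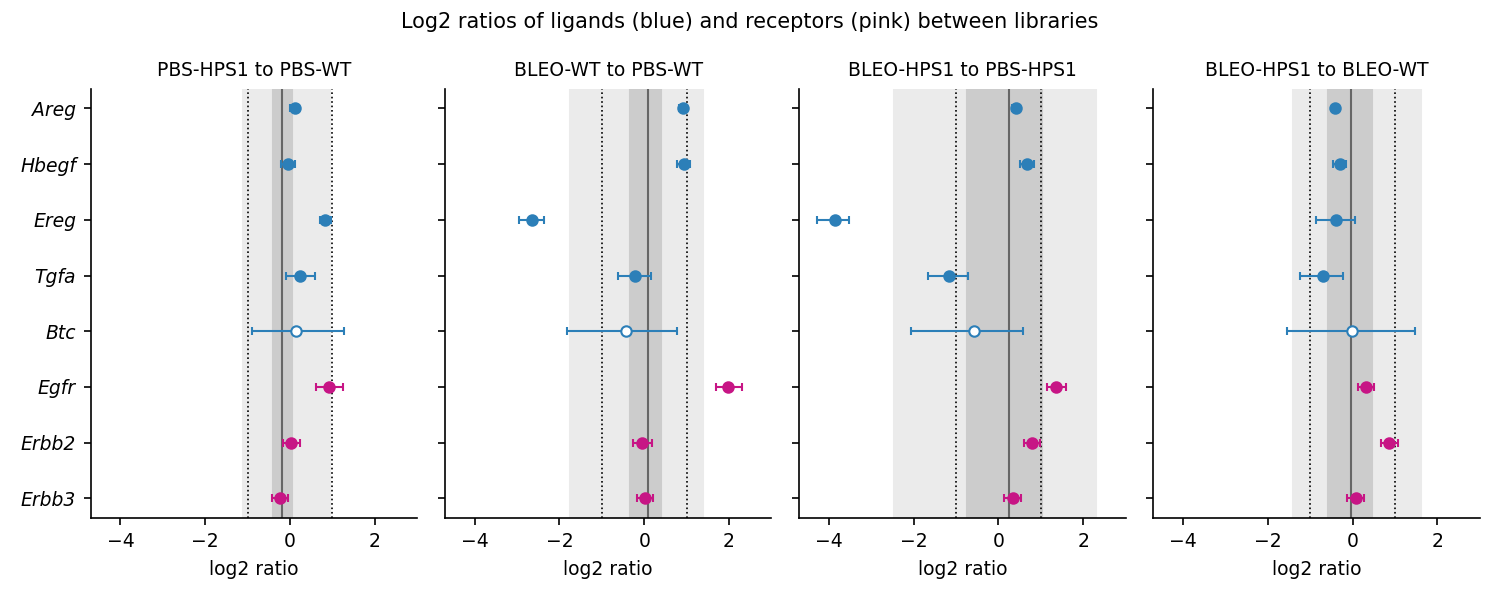
Log2 ratios of the 8 genes in the 4 comparisons, ligands in blue and receptors in pink, with exact 95% intervals for counting error and an open point for *Btc*, which did not reach 1 CPM. Grey bands hold the middle 50% and 95% of all compared genes, the solid line is their median, and dotted lines mark 2-fold. *Egfr* lies above 2-fold and *Ereg* below it in both comparisons with bleomycin, and in BLEO-HPS1 against BLEO-WT no member passes 2-fold.

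The genotypes after injury were read from BLEO-HPS1 against BLEO-WT. No member was at least 2-fold apart, where 6.72% of all compared genes were higher and 10.3% lower. *Areg* was at 25.0 CPM in the library from *Hps1*-/- mice and 33.0 in that from WT mice. Its log2 ratio was -0.40 (-0.49 to -0.31), so *Areg* was 1.32 times lower in BLEO-HPS1. It was negative under every setting tried, from -0.71 after the GC and length correction to -0.34 with DESeq2 size factors. The difference is small beside the spread of all genes, of which 33.2% had a lower ratio.

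The other compared ligands were also lower in BLEO-HPS1. *Hbegf* was at 10.3 against 12.7 CPM (log2 ratio -0.30, -0.45 to -0.16) and *Tgfa* at 0.807 against 1.33 CPM (-0.70, -1.23 to -0.22). *Ereg*, with 66 against 108 reads, had a log2 ratio of -0.39 whose interval reached 0.06, and it turned to 0.32 after the correction. *Erbb2* and *Egfr* went the other way. *Erbb2* was at 7.65 against 4.17 CPM, with a log2 ratio of 0.87 (0.67 to 1.08), or 1.83-fold, and *Egfr* at 7.09 against 5.70 CPM, with a ratio of 0.31 (0.12 to 0.51). After the GC and length correction the ratio of *Egfr* was 1.15, past 2-fold, and that of *Erbb2* was 0.61. *Erbb3* had a log2 ratio of 0.08 (-0.12 to 0.28).

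*Erbb2* overlaps *Mien1*, a protein-coding gene on the opposite strand. *Mien1* was at 35.8, 28.7, 37.1 and 68.2 CPM in the order PBS-WT, PBS-HPS1, BLEO-WT, BLEO-HPS1. In the last pair its log2 ratio was 0.88, nearly that of *Erbb2*. In PBS-HPS1 against PBS-WT it was -0.32 against 0.03 for *Erbb2*, and in BLEO-HPS1 against PBS-HPS1 1.25 against 0.80. Whether reads were counted by strand is not given, so whether the overlap mixes the reads of the 2 genes is not known. The part of *Mien1* in the reads of *Erbb2* was not tested.

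The sum of the fibroblast markers had the same order over the libraries as *Egfr*. They summed to 367 CPM in PBS-WT and 542 in PBS-HPS1, then 776 in BLEO-WT and 3340 in BLEO-HPS1, and 12 of 15 were above BLEO-WT by at least 2-fold in BLEO-HPS1, against 6.72% of all compared genes, with *Col1a1* at 982 against 170 CPM. *Col1a1*, *Col1a2* and *Col3a1* had the highest mean levels and weighed most in the sum. Several single markers, *Pdgfra*, *Dcn*, *Postn* and *Npnt* among them, did not have the order of *Egfr* and were higher in PBS-HPS1 than in BLEO-WT. Epithelial markers, also a source of EGF receptors, summed to 1744, 1330, 1024 and 790 CPM in the order PBS-WT, PBS-HPS1, BLEO-WT, BLEO-HPS1, and mesothelial markers to 12.2 to 15.9 CPM. *Sftpc* and *Krt19* had the highest mean levels of the epithelial list and were lower in both bleomycin libraries. *Cdh1*, *Krt8*, *Krt18*, *Krt7*, *Ager* and *Hopx* went the other way and were higher after bleomycin in both genotypes. *Krt18*, for example, was at 4.54, 4.36, 6.94 and 11.9 CPM in that order. Basophil and mast cell markers, from leukocytes that also make AREG, summed to 171, 131, 90.2 and 79.0 CPM in the same order, lower in both bleomycin libraries. T cell markers summed to 950, 722, 846 and 1542 CPM, endothelial markers to 863, 801, 939 and 1196 CPM, and neutrophil markers to 1657, 485, 923 and 468 CPM, although the gate was set against CD3 and Ly6G. No marker of the 9 lists was at 0 in any library. The part of these cells in the levels of the 8 genes was not tested.

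How the response to bleomycin differed by genotype was read from the difference of log2 ratios, the ratio in *Hps1*-/- mice less that in WT mice. At least 2-fold differences were seen in 16.3% of all compared genes in the higher direction and in 11.2% in the lower, and among members in *Ereg* alone, at -1.22 (-1.69 to -0.75, with the 2 counting intervals combined). For *Areg* the difference was -0.51 (-0.65 to -0.37), from 0.92 in WT and 0.41 in *Hps1*-/- mice. It was negative under every setting, down to -1.03 after the GC and length correction. *Tgfa* had a difference of -0.93, *Egfr* of -0.60 and *Erbb2* of 0.84. That of *Egfr* turned to 0.51 after the correction, and that of *Ereg* shrank to -0.48.

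Shares within a library do not depend on how libraries are scaled. They are shares of raw reads, to which the GC and length correction was not applied, and that correction moved the ratios of *Ereg* and *Egfr* above. *Areg* made up 49.1% (47.2 to 51.0) of the 2757 reads on the 7 EGFR ligands in PBS-WT and 42.1% (40.7 to 43.6) of 4407 reads in PBS-HPS1. In the bleomycin libraries the share was 66.2% (64.7 to 67.7) of 3906 reads in BLEO-WT and 65.9% (63.9 to 67.8) of 2394 reads in BLEO-HPS1. The intervals of the bleomycin libraries overlapped each other and neither PBS library. *Ereg* accounted for 24.6% and 34.7% in PBS-WT and PBS-HPS1 and for 2.76% in each bleomycin library. Between *Areg* and *Hbegf* the balance changed little, with *Areg* at 72.3% of their joint reads in PBS-WT and 74.5% in PBS-HPS1, then 72.2% in BLEO-WT and 70.8% in BLEO-HPS1. Of the reads on *Egfr*, *Erbb2* and *Erbb3* together, *Egfr* took 12.5%, 22.8%, 36.5% and 34.0% in the order PBS-WT, PBS-HPS1, BLEO-WT, BLEO-HPS1, and *Erbb3* took 49.9%, 40.4%, 36.9% and 29.3%.

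**Figure D3:**
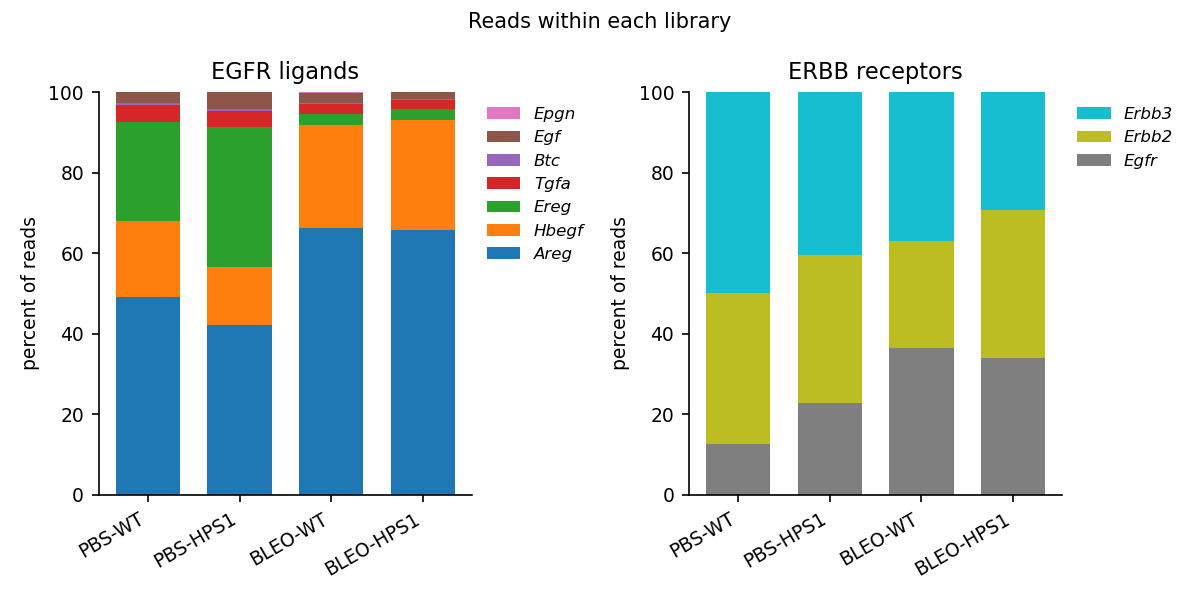
Percent of reads within each library that fell on each of 7 EGFR ligands (left) and on each of 3 receptors (right), 1 bar per library, without correction for GC content or length. *Areg* holds 42.1% to 49.1% of ligand reads in the PBS libraries and 65.9% to 66.2% in the bleomycin libraries, where *Ereg* holds 2.76%, and the *Egfr* share of receptor reads is larger in both bleomycin libraries.

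Against genes of ILC2s in the same library, the order of *Areg* by uncorrected reads depended on the gene chosen. Per 100 reads of *Gata3* there were 45.3 reads of *Areg* in PBS-WT and 48.0 in PBS-HPS1, then 131 in BLEO-WT and 92.8 in BLEO-HPS1. Per 100 reads of *Il1rl1*, which encodes the IL-33 receptor T1/ST2, there were 42.4, 46.9, 88.4 and 105 in the same order, and per 100 reads of *Icos* 21.7, 24.2, 64.2 and 77.8. Both bleomycin libraries were above both PBS libraries on these 3 measures, and BLEO-HPS1 was below BLEO-WT on the first and above it on the other 2. After the GC and length correction, log2 ratios in BLEO-HPS1 against BLEO-WT were -0.71 for *Areg*, 0.09 for *Gata3*, 0.03 for *Il1rl1* and -0.20 for *Icos*. *Areg* was then lower in BLEO-HPS1 against all 3. In BLEO-HPS1 against PBS-HPS1 the corrected ratios were -0.14, -0.57, 0.46 and -0.50, so the rise of *Areg* per *Il1rl1* was not kept. Per 100 reads of *Thy1*, which T cells and fibroblasts also express, there were 5.67, 9.11, 14.7 and 4.53.

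The other genes of the family were low. *Egf*, which encodes epidermal growth factor, was at 0.898, 1.83, 1.22 and 0.649 CPM in the order PBS-WT, PBS-HPS1, BLEO-WT, BLEO-HPS1. It was at least 2-fold higher in PBS-HPS1 than in PBS-WT (log2 ratio 1.01, or 0.94 and short of 2-fold after the GC and length correction) and at least 2-fold lower in BLEO-HPS1 than in PBS-HPS1 (-1.46). *Epgn*, the epigen gene, had at most 6 reads. Of the neuregulins, *Nrg4* was at 6.80 CPM in PBS-WT and 5.07 in PBS-HPS1 and was lower in both bleomycin libraries, at 2.69 in BLEO-WT and 1.87 in BLEO-HPS1. *Nrg4* overlaps the protein-coding gene *Fbxo22* on the opposite strand. *Nrg1* was at 1.27 CPM in BLEO-HPS1 and 2.59 in BLEO-WT, a log2 ratio of -1.02 that was -0.29 after the GC and length correction. *Nrg2* was between 1.94 and 3.13 CPM. *Nrg3* had at most 11 reads, and *Erbb4*, the fourth receptor, had 21, 20, 4 and 4 reads.

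Of 10 compared genes for the proteases that release the ligands, their partners and an inhibitor, 3 were at least 2-fold higher and 0 lower in BLEO-WT than in PBS-WT, where 5.28% of all compared genes were higher and 8.22% lower. The 3, named after their values were seen, were the protease genes *Adam15* (log2 ratio 1.64) and *Adam8* (1.09) and *Timp3* (1.09), which encodes an inhibitor of ADAM17. In BLEO-HPS1 relative to BLEO-WT 0 of the 10 were higher and 2 lower, against 6.72% and 10.3% of all compared genes. The 2 were *Adam9* at 59.3 against 172 CPM (log2 ratio -1.54) and *Adam10*, the sheddase of EGF and BTC, at 90.4 against 238 CPM (-1.40). After the GC and length correction these ratios were -1.17 and -0.70. *Adam17*, the main sheddase of AREG, TGFA and HBEGF and named here outside the rule for named genes, was at 126, 95.3, 126 and 64.4 CPM. Its log2 ratio in that comparison was -0.97, and -0.45 after the correction. The list's median was -0.16, against -0.04 for all compared genes.

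Downstream of the receptors, 27 adaptor and kinase genes were compared. In BLEO-HPS1 against BLEO-WT 0 were at least 2-fold higher and 5 lower, with a median of 0.04, where 6.72% of all compared genes were higher and 10.3% lower and their median was -0.04. The 5 were *Sos2*, a Ras exchange factor (-1.27), *Braf* (-1.25), and the PI3-kinase subunit genes *Pik3r1* (-1.17), *Pik3ca* (-1.12) and *Pik3cb* (-1.08). None of the 27 was 2-fold apart in either direction after the GC and length correction, and those 5 then had ratios of -0.22 to -0.63. Of 19 genes that dampen receptor signalling, 4 were lower and 0 higher, beside the same 10.3% and 6.72% of all compared genes, with a median of -0.48 against -0.04. They were *Spred1* (-1.24), *Cbl*, the ubiquitin ligase that sends EGFR for degradation (-1.19), *Socs4* (-1.10) and *Lrig2* (-1.08). After the correction 0 of 19 were 2-fold apart. The share of all compared genes after that correction is not given here, so the corrected counts are not read as results about either list.

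Of 21 compared genes that ERK signalling induces, 3 were higher by at least 2-fold in BLEO-WT than in PBS-WT, 0 were lower and the median was 0.54 against 0.09 for all compared genes, of which 5.28% were higher and 8.22% lower. In BLEO-HPS1 against BLEO-WT 3 were lower and 1 higher, with a median of -0.36. These counts are near the 10.3% lower and 6.72% higher of all compared genes and are not read as a result about the list. *Egr2* was at 60.2 against 155 CPM (-1.37), *Egr3* at 5.08 against 11.0 CPM (-1.11) and *Vegfa* at 39.2 against 82.7 CPM (-1.08), while *Etv4* was at 1.23 against 0.421 CPM. After the GC and length correction 8 of the 21 were lower and 0 higher. The share of all compared genes after that correction is not given here, so these counts too are not read as a result about the list. As background, ERK-induced genes respond to many signals besides those of the ERBB receptors.

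**Figure D4:**
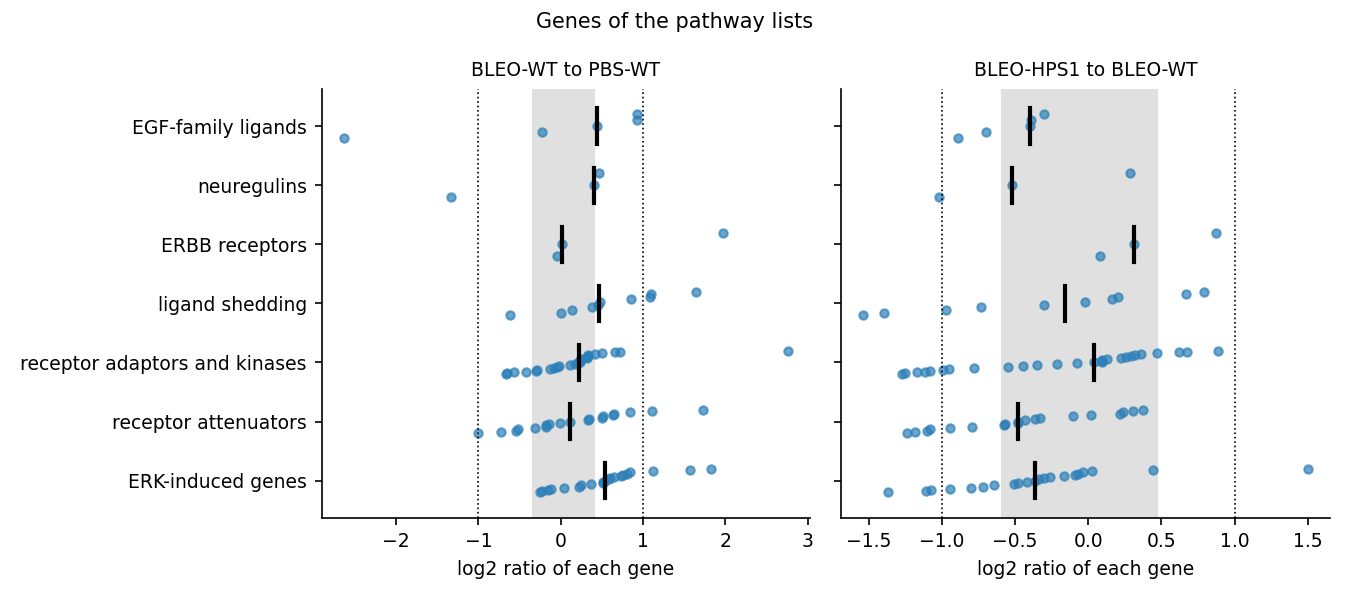
Log2 ratio of each compared gene in 7 lists of the pathway, for BLEO-WT against PBS-WT (left) and BLEO-HPS1 against BLEO-WT (right). Black bars are list medians, the grey band holds the middle 50% of all compared genes and dotted lines mark 2-fold. The ERK-induced genes have a median of 0.54 on the left and -0.36 on the right.

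Signals that raise *Areg* in lymphocytes were given by 17 compared genes, of which 2 were at least 2-fold higher and 1 lower in BLEO-HPS1 than in BLEO-WT, near the 6.72% and 10.3% of all compared genes. *Tnfrsf18*, which encodes the costimulatory receptor GITR, was at 85.4 against 36.9 CPM (log2 ratio 1.21) and *Nmur1*, the neuromedin U receptor of ILC2s, at 2.82 against 1.26 CPM (1.14). *Il1rap*, the partner chain of the IL-33 receptor, was at 12.1 against 34.0 CPM (-1.48). After the GC and length correction none of the 17 was 2-fold apart in this comparison. The share of all compared genes after that correction is not given here, so this is not read as a result about the list.

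The genes whose pattern lay nearest to *Areg* over the 4 libraries were *Klhl6*, *Ccl6*, *Tatdn2*, *Tgif1* and *Litaf*, at distances of 0.05 to 0.13 between centred log2 CPM, among 9281 protein-coding genes with a mean of at least 10 CPM. *Ccl6*, a chemokine gene, was at 1330, 1457, 2558 and 2048 CPM in the order PBS-WT, PBS-HPS1, BLEO-WT, BLEO-HPS1. Nearest to *Egfr* were *Adamts15*, *Cables1*, *Crispld2*, *Map3k6* and *Plat*, at larger distances of 0.33 to 0.48. *Crispld2*, for example, was at 11.2, 18.1, 31.6 and 55.7 CPM in that order. With 4 points, many genes share any given pattern.

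**Figure D5:**
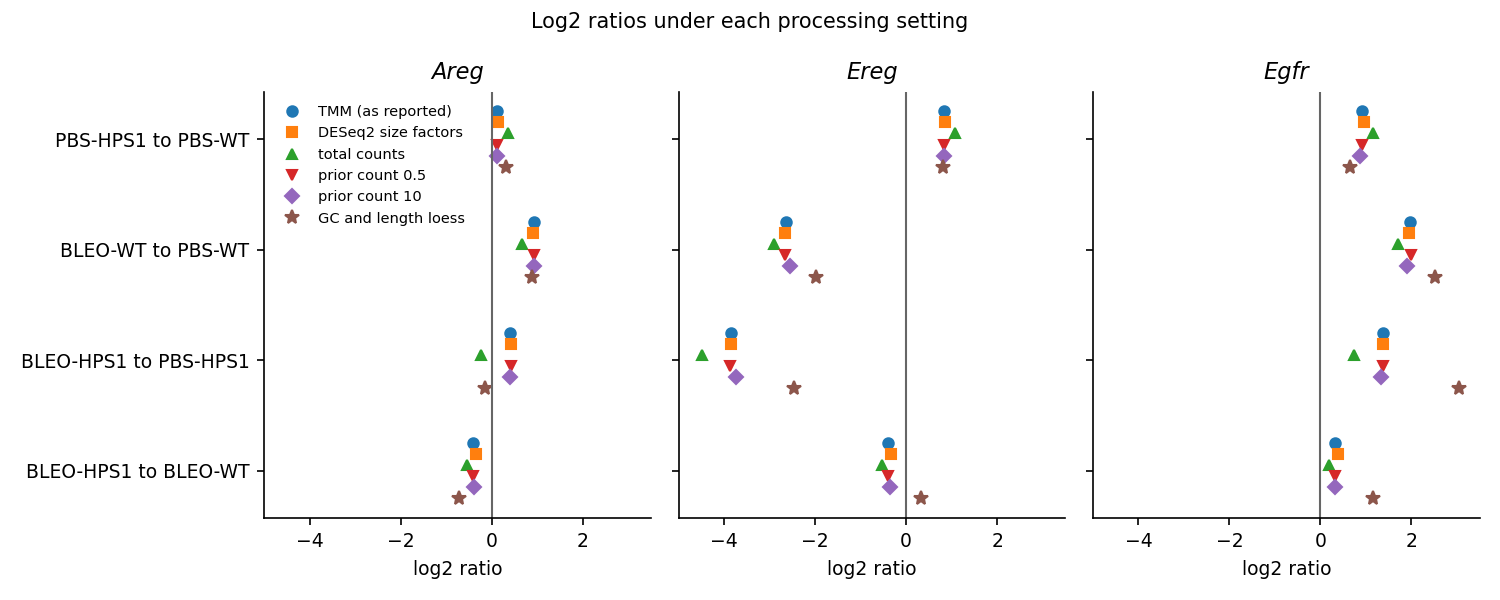
Log2 ratios of *Areg*, *Ereg* and *Egfr* in the 4 comparisons, 1 marker per processing setting, with a line at 0. *Areg* in BLEO-HPS1 against PBS-HPS1 crosses 0, from 0.41 as reported to -0.23 with total counts and -0.14 after the GC and length correction, while *Ereg* stays below 0 in both comparisons with bleomycin.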

How the data were processed

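RNA of ILC2s sorted from mouse lungs was sequenced in 4 groups with 1 library per group. The file deposited by the authors gives raw counts, unnormalized integers for each of 49315 Ensembl genes. A SMARTER mRNA kit was used for library preparation. The aligner, counting tool, build and annotation are not given in the sources used here. Of the identifiers, 48970 were found in GENCODE M21, which gave names, GRCm38 positions and the length and GC content of the longest transcript. Counts were scaled with TMM library sizes (edgeR 4.0.16 in R 4.3.3), and log2 CPM used a prior count of 2. Genes with at least 1 CPM in at least 1 library were compared, and 2-fold was the threshold. No test between groups was made, because no group has a replicate. Ratios have exact Clopper-Pearson intervals and levels exact Poisson intervals at 95%.

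The alternatives were DESeq2 size factors (version 1.42.0), total counts, prior counts of 0.5 and 10, a loess fit of the ratios on GC content and length whose fitted values were subtracted (span 0.3), the omission of the filter, a minimum of 10 counts per library, and thresholds of 1.5-fold and 4-fold. The steps were tested on simulated counts with 200 genes changed 4-fold, in the ratio of BLEO-HPS1 to PBS-HPS1. Without a GC bias, all 200 were recovered and 0 unchanged genes were called, with or without the correction. With a GC bias added, the uncorrected ratio recovered 196 and called 497 unchanged genes. After the correction it recovered 200 and called 4. The bias was linear in GC content, was added to BLEO-HPS1 alone and had no trend with length, and the changed genes were picked among those with many reads. The simulation thus cannot show whether the correction suits the trends of these data or genes with few reads. The ratios reported here are uncorrected unless stated. Figures and tables were made with Python 3.11.15. The members and the 17 gene lists were chosen with earlier results of these data known. Named genes were the members, the rest of the family, up to 6 genes of each pathway list at least 2-fold apart in BLEO-HPS1 against BLEO-WT, the highest markers, and the 5 genes nearest to *Areg* and to *Egfr*.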

Additional observations from a re-analysis of the deposited data

Results flagged for a closer look

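The family held 5 compared EGF-family ligands, 3 compared neuregulins and 3 compared ERBB receptors. Of these genes, 3 had log2 ratios for bleomycin of opposite sign in the 2 genotypes. The share of all compared genes with opposite signs is not given here, so this count is not read as a result about the family. *Egf* had 0.44 (-0.01 to 0.91) in WT and -1.46 in *Hps1*-/- mice, a difference of -1.90. *Nrg1* had 0.46 and -0.26 (-0.68 to 0.13), a difference of -0.73, and after the GC and length correction 0.98 and 1.06, of the same sign. *Erbb2* had -0.04 (-0.27 to 0.18) and 0.80, a difference of 0.84. Each of the 3 intervals given spans 0, so the sign of that ratio is not set beyond counting error. *Areg* had ratios of the same sign as reported and of opposite sign under other settings. They were 0.66 in WT and -0.23 in *Hps1*-/- mice with total counts, and 0.89 and -0.14 after the GC and length correction. With 1 library per group these differences were not tested.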

How the results depend on the processing

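No paired analysis was possible because each group has 1 library, and no replicate could be left out for the same reason. Prior counts of 0.5 and 10 changed the sign of 0 of 40 log2 values of the members, DESeq2 size factors of 2, total counts of 7 and the GC and length correction of 8. The ratios followed GC content, with Spearman's rho over 11133 genes of 0.609 in BLEO-HPS1 against BLEO-WT, 0.602 in BLEO-HPS1 against PBS-HPS1, 0.485 in BLEO-WT against PBS-WT and -0.0726 in PBS-HPS1 against PBS-WT. For the length of the transcript it was -0.493, -0.517, -0.256 and 0.429 in the same order. Total counts moved the median of all genes by 0.25, -0.27, -0.68 and -0.14 in PBS-HPS1 against PBS-WT, BLEO-WT against PBS-WT, BLEO-HPS1 against PBS-HPS1 and BLEO-HPS1 against BLEO-WT. What makes the ratios follow GC content and length was not tested.

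With total counts, *Areg* had log2 ratios of 0.35 in PBS-HPS1 against PBS-WT, 0.66 in BLEO-WT against PBS-WT, -0.23 in BLEO-HPS1 against PBS-HPS1 and -0.53 in BLEO-HPS1 against BLEO-WT, and a difference of -0.89. After the GC and length correction these were 0.32, 0.89, -0.14 and -0.71, with a difference of -1.03. The number of members at least 2-fold apart was 2 with total counts in PBS-HPS1 against PBS-WT and for the difference of ratios, and 1 after the correction in BLEO-HPS1 against BLEO-WT. At 1.5-fold it was 2 in PBS-HPS1 against PBS-WT, 4 in BLEO-WT against PBS-WT, 5 in BLEO-HPS1 against PBS-HPS1, 2 in BLEO-HPS1 against BLEO-WT and 4 for the difference. At 4-fold it was 1 in each comparison with bleomycin and 0 for the difference. The shares of all compared genes under these settings are not given here, so the counts are not read as results about the members. Depth limits *Btc*, *Epgn*, *Nrg3* and *Erbb4*, with at most 21 reads in any library.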
